A study of Equus asinus with 6 samples.

Results

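Transcripts of the collagen chains were measured by RNA-seq in back muscle, the longissimus dorsi, of 24-month-old Guangling donkeys (Equus asinus). The chains were taken by name: every row of the gene table named COL, a type number, A and a chain number was a member, which gave 42 of 20873 genes. The name rule used no measured value, though the chains were chosen with earlier results of these data known. The 6 libraries came from 3 muscles of high and 3 of low intramuscular fat (IMF) content, IMF being the fat held between and within muscle fibres, and breed, age and tissue were shared by both groups. The labels give no IMF percentage, no sex and no sequencing batch, and nothing in them says that each library is its own animal. The p-values therefore reflect library-to-library spread, which may be technical. The libraries held 39052998 to 47494157 assigned reads. Low IMF replicates 2 and 3 were much closer to each other than any other pair (mean chi-square per gene 7.57, against 114.9 to 557.3 for the other pairs), though they differed by more than sampling noise.

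A collagen is a triple helix of chains, each the product of its own gene. In skeletal muscle the fibrillar types I, III and V form the fibrils of the connective tissue sheaths, type IV forms the network of the basement membrane around each fibre and vessel, and type VI forms beaded filaments that link that membrane to the fibrils. Fibril-associated collagens such as types XII and XIV sit on fibril surfaces, and types XV and XVIII lie at basement membranes. Fibroblasts and fibro-adipogenic progenitors make most of the fibrillar chains. The chains are hydroxylated and folded in the endoplasmic reticulum, trimmed outside the cell and crosslinked by lysyl oxidases.

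Of the 42 chains, 35 had at least 1 read in every library and 38 passed the low-count filter for the test. On the per-length scale of the deposited FPKM (reads scaled to gene length and library size), COL6A1 had the highest mean over the 6 libraries (65.1 FPKM), followed by COL6A2 (42.8), COL4A1 (42.8), COL4A2 (38.9) and COL3A1 (30.6). These 5 chains held 54.3% to 63.2% of the summed collagen FPKM of a library, and the top 10, which added COL15A1, COL5A3, COL1A2, COL1A1 and COL6A3, held 85.6% to 89.6%. The order among the first 5 was not firm, since COL6A2 measured 48.1 ± 22.8 FPKM and COL4A1 50.9 ± 36.2 FPKM in high IMF muscle (SD, n = 3 here and below). At the other end, 20 chains averaged below 1 FPKM. Several chains of cartilage were among them: COL2A1 averaged 0.0883 FPKM, and COL10A1 and COL11A1 0.0133 FPKM each.

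Collagen transcripts were most abundant in high IMF replicates 1 and 2 and least abundant in high IMF replicate 3. The 42 chains together took 0.381%, 0.288% and 0.0888% of all reads across high IMF replicates 1 to 3, against 0.145%, 0.157% and 0.179% across low IMF replicates 1 to 3; values by library are given below in this order. On CPM, counts scaled to library sizes adjusted by trimmed-mean (TMM) normalization, the sum was 2285 ± 1168 in high and 1689 ± 265 in low IMF muscle. The 3 high libraries thus surrounded the 3 low ones. The log2 ratio of the group means was 0.44. It was 0.08 when high IMF replicate 1 was left out and 0.79 when high IMF replicate 3 was. In these whole-muscle libraries, fewer cells of a type and less RNA per cell cannot be told apart.

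**Figure D1:**
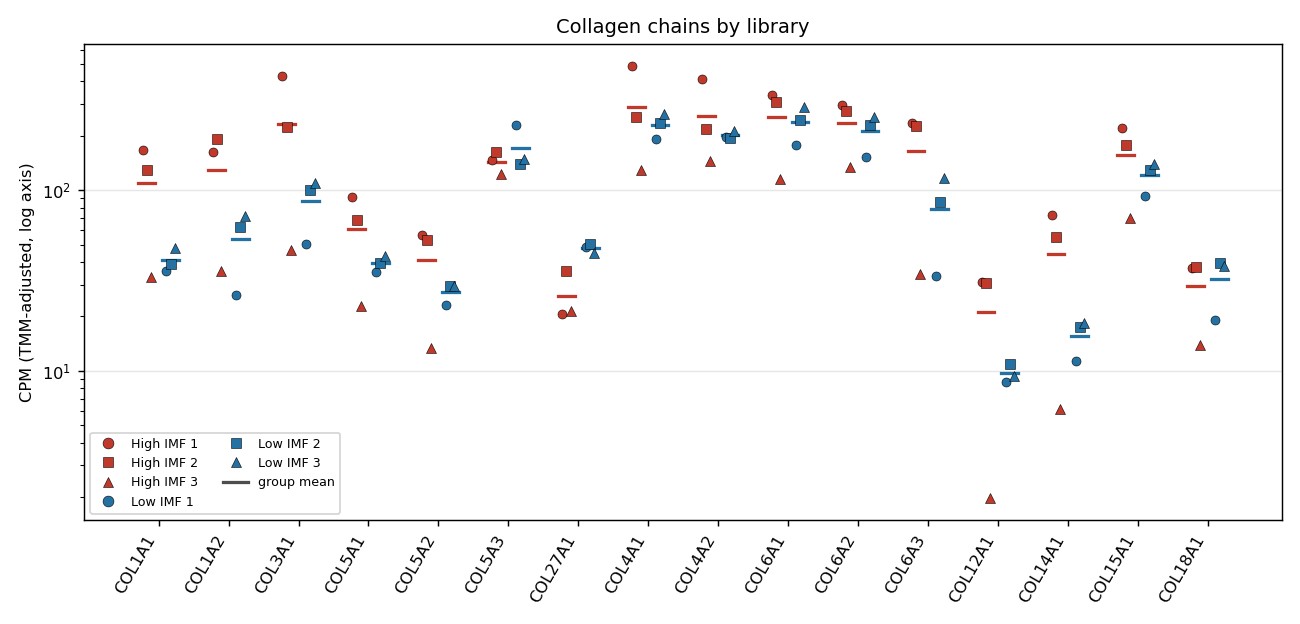
CPM (log axis) of 16 collagen chains in each of the 6 libraries, with red symbols for high IMF, blue for low IMF, shapes for the replicate number and short lines for group means. High IMF replicates 1 and 2 lie at the top and high IMF replicate 3 at or near the bottom for most chains, whereas COL27A1 has all 3 high libraries below the low ones.

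Each chain was then compared between muscle of high and low fat content. edgeR's quasi-likelihood test called 0 of 38 chains at an adjusted p under 0.05 (0.0% of all genes tested were called), and limma-voom and the DESeq2 Wald test also called 0 chains. At an unadjusted p under 0.05 edgeR had 2 chains, COL1A1 on the higher and COL27A1 on the lower side, or 5.26% of those tested, beside 7.27% of all 15933 genes tested. By direction, 4.53% of all genes were higher and 2.74% lower at that level. DESeq2 had 7 of 42 chains there, beside 7.54% of its genes, and limma-voom 1 of 38, beside 6.97%. The groups did not overlap for 0 chains on the higher and 2 on the lower side, beside 6.86% and 6.1% of all genes (13.0% in either direction). The fitted log2 fold was positive for 23 chains and negative for 15, beside 51.2% and 48.8% of all genes. Its median was 0.20 over the chains and 0.01 over all genes tested. Leaving out 1 high library at a time (replicate 1, 2 or 3) gave a chain median of -0.01, -0.04 or 0.44. Of the 39 chains with an adjusted p in the authors' deposited table, 0 were below 0.05, beside 1.15% of all genes there (1.16% in the DESeq2 test run here), and the lowest value was 0.102 for COL27A1.

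Single libraries decided how many chains reached an unadjusted p under 0.05 in edgeR. The counts below are of chains, 38 of which were tested in the main fit, while the percentages are of all genes. A count and the percentage beside it are therefore not on the same scale. Without high IMF replicate 3 there were 13 chains, beside 12.5% of all genes, and 12 of them were higher, beside 7.04%. They included COL1A1, COL1A2, COL3A1, COL5A1, COL5A2, COL6A3, COL12A1 and COL14A1. Without high IMF replicate 2 there were 6, beside 5.64%, all of them lower, beside 2.49%: COL27A1 and 5 chains of low count, COL2A1, COL9A1, COL9A3, COL11A2 and COL22A1. Without high IMF replicate 1 there was 1, beside 8.3%. Leaving out low IMF replicates 1, 2 and 3 in turn gave 4, 1 and 3 chains, beside 9.11%, 4.32% and 4.6%. With low IMF replicates 2 and 3 summed to 1 sample there was also 1, beside 4.26%. Without high IMF replicate 3, 17 chains lay above and 3 below the low libraries with no overlap, beside 16.2% and 15.1% of all genes. In none of these fits did a chain pass the adjusted threshold. Of all genes, 0.0185% passed without high IMF replicate 1 and 0 in the other fits. With the replicate number as a block 3 chains were at an unadjusted p under 0.05, beside 7.45%, all of them lower, beside 3.06%.

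**Figure D2:**
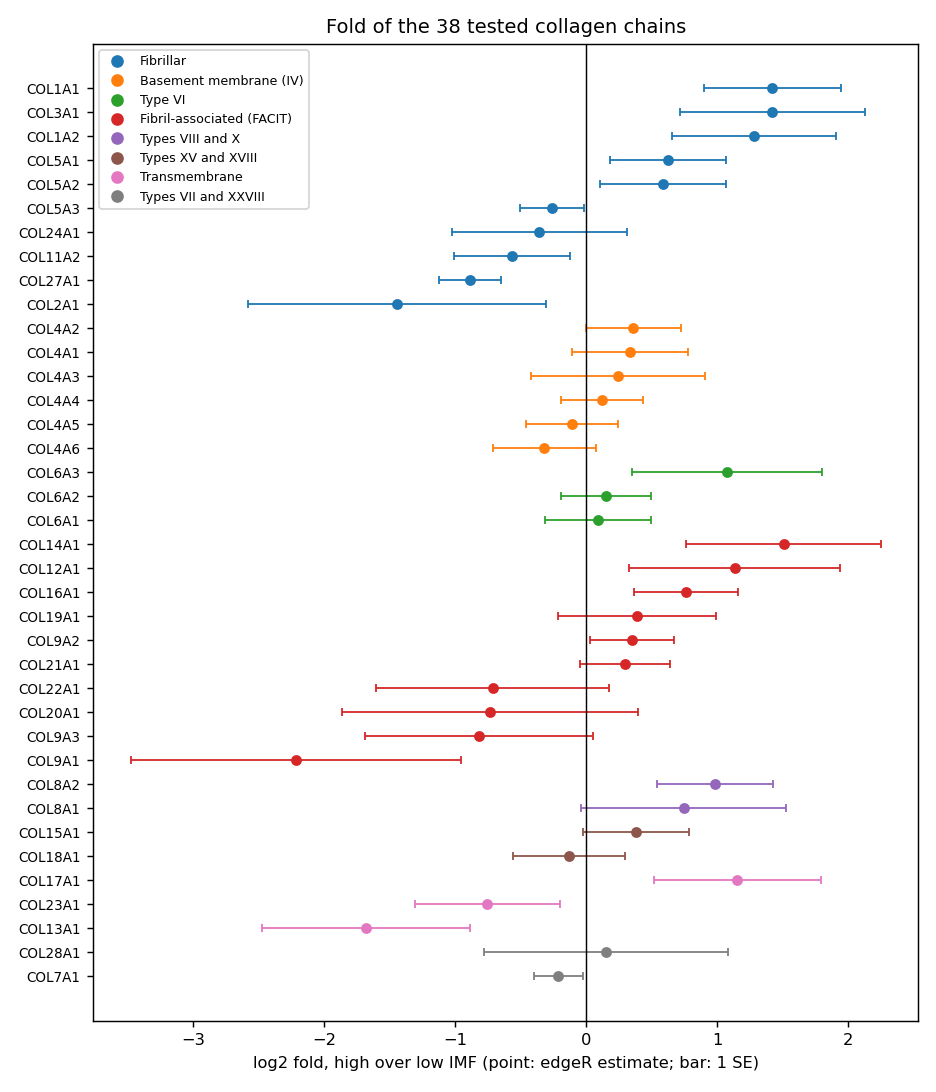
Fitted log2 fold of high over low IMF muscle for the 38 tested chains, grouped by structural class, with bars of 1 standard error. COL14A1, COL1A1 and COL3A1 lie at 1.42 to 1.51 with wide bars, COL27A1 at -0.88 has a narrow bar, and no chain passed the adjusted threshold.

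Signs were counted by abundance, with no test of a difference. Among the 22 chains with a mean of at least 1 FPKM, 17 had a positive and 5 a negative log2 fold, and among the 16 tested chains below 1 FPKM, 6 were positive and 10 negative. Of all genes tested, at any level, 51.2% were positive, and no such share was taken by abundance. A single arrangement recurred: high IMF replicates 1 and 2 above all low libraries and high IMF replicate 3 below all of them. It was noticed after the values were seen and held for 13 of the 38 tested chains (34.2%), against 4.61% of all genes tested. All 13 were among the 22 abundant chains: COL1A1, COL3A1, COL5A1, COL5A2, COL4A2, COL6A1, COL6A2, COL8A1, COL12A1, COL14A1, COL15A1, COL16A1 and COL21A1. With CPM on total reads it held for 16 chains (42.1%) and 11.5% of all genes. For 18 tested chains (47.4%) no library was lower than high IMF replicate 3, against 21.8% of all genes. The standard deviation of log2 CPM between the high libraries had a median of 0.88 over the chains, against 0.39 between the low libraries, while over all genes the medians were 0.34 and 0.26. Low IMF replicates 2 and 3 were much closer to each other than any other pair, which limits this comparison of spread.

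Types I and III, the main fibril formers, had group means more than 2-fold apart, with wide spread between the high libraries. COL1A1, the alpha 1 chain of type I, measured 166.1, 129.5 and 33.1 CPM in high and 35.88, 38.97 and 47.96 CPM in low muscle. Its high IMF replicate 3 lay below every low library, the other 2 above every one. The log2 fold was 1.42 ± 0.52 (SE; 2.68-fold), with an unadjusted p of 0.0283 and an adjusted p of 0.626 in edgeR. COL1A2, its partner chain, measured 162.3, 191.9 and 35.6 CPM against 26.4, 62.5 and 71.6 CPM, with high IMF replicate 3 inside the low range. COL3A1, the single chain of type III, measured 426.4, 222.9 and 46.5 CPM against 50.03, 100.5 and 109.5 CPM. Its high IMF replicate 3 was the lowest of all 6. The adjusted p was 0.747 for COL1A2 (2.43-fold) and 0.752 for COL3A1 (2.68-fold) in edgeR. With high IMF replicate 3 left out the log2 folds were 1.85 for COL1A1, 1.72 for COL1A2 and 1.90 for COL3A1, with edgeR adjusted p of 0.18, 0.258 and 0.258. For COL3A1 the value was 0.63 when high IMF replicate 1 was left out.

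Type V chains, which nucleate fibrils, were split. COL5A1 measured 91.2, 68.2 and 22.9 CPM against 35.4, 39.3 and 43.5 CPM, and COL5A2 measured 56.5, 53.1 and 13.4 CPM against 23.0, 29.5 and 29.3 CPM. Both had the same arrangement as COL1A1 with smaller folds (log2 0.63 ± 0.44 and 0.59 ± 0.48, SE). COL5A3, the third type V chain, measured 147.0, 162.3 and 122.3 CPM against 230.0, 138.7 and 148.0 CPM. Its highest library was low IMF replicate 1, which for COL1A2 was the lowest of the 6. COL24A1, another fibrillar chain, also peaked there, with 13.4 CPM in low IMF replicate 1 and 2.375 to 6.47 CPM in the other 5 libraries.

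COL27A1 was the fibrillar chain whose 3 high libraries all lay below the low ones. This fibrillar collagen, best known from cartilage, measured 20.6, 35.8 and 21.4 CPM against 48.3, 50.5 and 44.9 CPM. That arrangement was seen in 6.1% of all genes tested and, among the chains, also in COL7A1. The log2 fold was -0.88 ± 0.24 (SE; 1.85-fold higher in low IMF muscle), with an unadjusted p of 0.00693 and an adjusted p of 0.523 in edgeR. COL27A1 had an unadjusted p under 0.05 without each library in turn and under every other setting, with log2 folds of -0.75 to -1.21 without single libraries, and its adjusted p was above 0.05 in all of them, the DESeq2 Wald value being 0.101. COL7A1, the anchoring fibril collagen of skin, had 6.78 ± 0.293 CPM in the high libraries against 7.86 ± 0.56, a small difference (1.16-fold) with an adjusted p of 0.895 in edgeR that overlapped between groups when CPM was taken on total reads.

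Several other chains known from cartilage were low. COL11A2 averaged 3.46 ± 2.16 CPM in the high libraries against 5.13 ± 0.358. COL2A1 had 0 to 48 reads in a library, COL9A1 0 to 39, COL9A3 2 to 30, COL11A1 0 to 21 and COL10A1 0 to 5. In the 4 libraries with a chain at 0, that count allows up to 0.0625 to 0.0869 CPM (3 reads on the adjusted library size, for counting error only). COL9A2, a chain of cartilage type IX, was higher, with 9.17, 14.7 and 7.36 CPM in the high libraries and 5.88, 8.75 and 9.89 CPM in the low libraries; its groups overlapped. COL10A1, COL11A1, COL26A1 and COL6A5 were the 4 chains too low to be tested.

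Type VI, whose loss causes muscular dystrophy, took the largest share of summed collagen FPKM of any type in every library. On summed CPM, which is not scaled to gene length, type IV lay above type VI in high IMF replicates 1 and 3 and low IMF replicate 1. The type VI chains did not have like folds. COL6A1 measured 337.4, 307.8 and 114.7 CPM against 177.6, 246.0 and 290.1 CPM (log2 fold 0.09 ± 0.41, SE). COL6A2 measured 296.2, 275.2 and 133.5 CPM against 153.0, 229.4 and 252.7 CPM (log2 fold 0.15 ± 0.34, SE). For both, 2 high libraries lay above the low ones and 1 below, and the group means were close. COL6A3, the longest chain of the type, measured 236.3, 226.8 and 34.1 CPM against 33.6, 85.9 and 116.9 CPM (log2 fold 1.07 ± 0.72, SE; adjusted p = 0.852 in edgeR). Its lowest libraries were high IMF replicate 3 and low IMF replicate 1.

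The basement membrane chains COL4A1 and COL4A2 had like values across libraries. COL4A1 measured 489.2, 253.5 and 128.8 CPM against 192.5, 236.6 and 262.8 CPM, and COL4A2 measured 410.1, 219.1 and 145.2 CPM against 196.9, 195.5 and 211.4 CPM. High IMF replicate 1 stood above the other libraries for both. Their log2 folds were 0.33 ± 0.44 and 0.36 ± 0.36 (SE), and without high IMF replicate 1 both turned, to -0.28 and -0.15. The minor chains COL4A5 and COL4A6 had log2 folds of -0.11 and -0.32, and COL4A3 and COL4A4, known from kidney, stayed between 0.486 and 3.36 CPM in every library. In the RefSeq order of genes (assembly EquAss-T2T_v2) 6 pairs of members are direct neighbours: COL4A1 and COL4A2, COL4A3 and COL4A4, COL4A5 and COL4A6, COL6A1 and COL6A2, COL3A1 and COL5A2, and COL9A1 and COL19A1. The log2 folds of the 2 neighbours had the same sign in the first 5 pairs and opposite signs for COL9A1 (-2.22) and COL19A1 (0.39), both of low count.

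Among fibril-associated collagens, COL12A1 and COL14A1 had the largest SD of CPM between high libraries. COL12A1, which lies on type I fibrils, measured 30.99, 30.6 and 1.97 CPM against 8.69, 10.96 and 9.38 CPM. COL14A1, a regulator of fibril growth, measured 72.6, 54.7 and 6.14 CPM against 11.3, 17.5 and 18.3 CPM. In both, high IMF replicate 3 was the lowest library and the other high libraries exceeded every low one by a wide margin. The adjusted p was 0.867 and 0.75 in edgeR. When high IMF replicate 3 was left out the log2 folds were 1.66 and 2.02 (edgeR adjusted p 0.159 and 0.206). COL16A1 (14.2 ± 6.91 CPM in high, 8.36 ± 1.22 in low) and COL21A1 (8.43 ± 3.36 and 6.87 ± 1.36) had the same arrangement at lower levels. COL22A1, found at the muscle to tendon junction, had 4 to 57 reads, COL20A1 0 to 93 and COL19A1 21 to 102, and their groups overlapped.

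COL15A1 and COL18A1, the basement membrane chains that carry endostatin-like ends, had close group means. COL15A1 measured 221.8, 178.5 and 70.2 CPM against 93.05, 129.2 and 139.8 CPM (log2 fold 0.38 ± 0.40, SE). COL18A1 measured 36.9, 37.8 and 13.9 CPM against 19.2, 39.8 and 38.1 CPM (log2 fold -0.13 ± 0.43, SE). The sign for COL18A1 was positive with library size only, with low IMF replicates 2 and 3 summed, and when high IMF replicate 3 or low IMF replicate 2 was left out. Of the short-chain collagens of vessel walls, COL8A1 measured 11.2, 10.2 and 1.45 CPM against 1.52, 4.92 and 7.22 CPM, and COL8A2 4.59 ± 2.01 CPM against 2.33 ± 0.889. Both overlapped between groups, and the adjusted p was 0.919 and 0.718 in edgeR.

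The transmembrane chains were low and did not share a direction. COL13A1, a collagen of the neuromuscular junction, measured 0.331, 1.74 and 1.54 CPM against 0.958, 4.896 and 5.74 CPM. Low IMF replicate 1 lay within the high range, and the log2 fold of -1.68 ± 0.79 (SE) had an adjusted p of 0.736 in edgeR. COL23A1 had a log2 fold of -0.75 and COL17A1, a hemidesmosome collagen, 1.15, with 5 to 51 reads per library for the 2 chains. COL28A1, known from peripheral nerve, ranged from 0.199 CPM in high IMF replicate 1 to 4.78 in high IMF replicate 2, with 1.07 to 2.12 CPM in the other libraries. Markers of Schwann cells, the glia of peripheral nerve, were also lowest in high IMF replicate 1 (list level -2.73 on the log2 scale) and highest in high IMF replicate 2 (1.13), and S100B, 1 of these markers, had 0 reads in the former. Their part in the COL28A1 values was not tested.

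The make-up of collagen mRNA does not depend on library scaling and was taken on FPKM. Types I and III together made up 24.1%, 22.5% and 11.8% of summed collagen FPKM in the high libraries and 8.14% to 12.2% in the low ones. The share was about as large in high IMF replicate 3 as in low IMF replicates 2 and 3, so the groups overlapped. Type VI (COL6A1 to COL6A3) took 31.4% ± 2.46 in the high libraries against 35.1% ± 3.8, and COL4A1 with COL4A2 took 22.1% ± 4.66 against 22.9% ± 1.71. COL15A1 was the steadiest, between 7.13% and 7.92% in all 6 libraries. COL5A3 took 4.28% and 5.98% in high IMF replicates 1 and 2, 11.3% in high IMF replicate 3 and 15.3% in low IMF replicate 1.

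**Figure D3:**
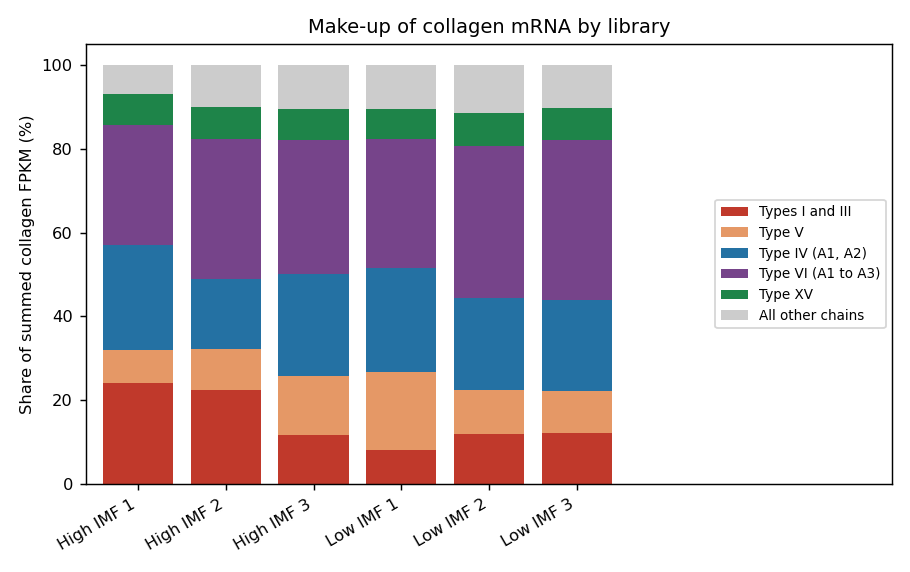
Share (%) of the summed collagen FPKM of each library taken by types I and III, V, IV, VI and XV and by all other chains. Types I and III take 24.1% and 22.5% in high IMF replicates 1 and 2 and 8.14% to 12.2% in the other 4 libraries, while the share of type XV is nearly level.

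Ratios of partner chains were taken for 6 pairs on FPKM and described without a test. COL4A1 over COL4A2 was 1.15, 1.12 and 0.858 against 0.946, 1.17 and 1.20, and COL6A1 over COL6A2 1.57, 1.54 and 1.18 against 1.60, 1.48 and 1.58. COL5A1 over COL5A2 lay between 1.06 and 1.40 in all 6 libraries. These 3 ratios varied by at most 1.4-fold over libraries whose collagen levels differed far more. COL1A1 over COL1A2 was 0.787, 0.519 and 0.715 against 1.04, 0.479 and 0.515, a range of 2.17-fold whose top was low IMF replicate 1. COL6A3 over COL6A1 varied most, 0.254, 0.267 and 0.108 against 0.0684, 0.126 and 0.146, a 3.9-fold range. The groups overlapped for all 6 ratios, COL3A1 over COL1A1 included (2.05 ± 0.65 and 2.26 ± 0.666).

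**Figure D4:**
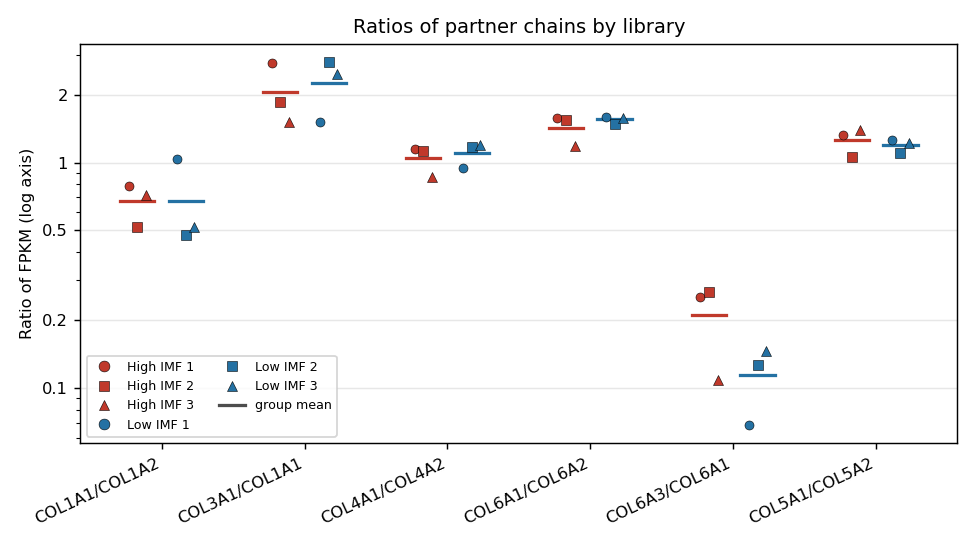
Ratio of FPKM (log axis) of 6 pairs of chains in each library, with red symbols for high and blue for low IMF and short lines for group means. COL4A1/COL4A2, COL6A1/COL6A2 and COL5A1/COL5A2 stay within 1.4-fold, and COL6A3/COL6A1 spreads over 3.9-fold.

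Genes that fold and modify procollagen were steadier than the chains. Of 19 genes tested edgeR called 0 after adjustment, and before it 2 were higher and 0 lower with p under 0.05 (all genes: 4.53% and 2.74%). Their log2 folds had a median of 0.04. Those 2 were prolyl 3-hydroxylase family members, P3H3 (10.1 ± 0.616 CPM in high, 6.93 ± 1.33 in low) and P3H4 (8.27 ± 3.54 and 4.33 ± 0.753). SERPINH1, the collagen chaperone HSP47, measured 169.9, 87.1 and 95.2 CPM against 40.2, 81.5 and 78.7 CPM. Its groups did not overlap, since high IMF replicate 3 lay above the low range, and the adjusted p was 0.702 in edgeR. Without overlap, 3 of the 19 genes lay above (SERPINH1, P3H3 and P4HA2) and 2 below (P4HB and COLGALT1), beside 6.86% and 6.1% of all genes. FKBP10, another chaperone of the pathway, measured 11.4 ± 4.89 and 6.52 ± 0.615 CPM. The prolyl 4-hydroxylase subunit P4HA1 measured 30.4 ± 3.97 and 29.6 ± 5.54 CPM.

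Of 14 tested genes of procollagen export and propeptide cleavage, 0 passed in edgeR and 2 were higher at an unadjusted p under 0.05 (4.53% of all genes were); 2 had all high libraries above the low ones (6.86% of all genes). These were proteinases that trim procollagen. BMP1, which removes the C-terminal propeptide, measured 32.6, 21.9 and 16.4 CPM against 12.8, 13.6 and 15.0 CPM, with no overlap (adjusted p = 0.584). ADAMTS14, which removes the N-terminal propeptide, measured 2.10, 1.09 and 0.984 CPM against 0.646, 0.242 and 0.292 CPM, also with no overlap (adjusted p = 0.547). PCOLCE2, an enhancer of BMP1, ranged from 3.33 to 80.9 CPM within the high libraries, and the coat protein SEC23A measured 67.9 ± 20.7 and 48.6 ± 9.65 CPM.

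All 5 lysyl oxidases had a positive log2 fold (median 1.03; 51.2% of all genes were positive), and 0 passed in edgeR. LOXL1 (11.5 ± 7.94 CPM in high, 4.004 ± 0.93 in low) and LOXL3 (2.18 ± 0.819 and 0.936 ± 0.306) had an unadjusted p under 0.05 on the higher side, beside 4.53% of all genes. LOXL3 had no overlap between groups (6.86% of all genes lay above without overlap), and in LOXL1 high IMF replicate 3 (3.30 CPM) lay within the low range. LOXL2 measured 18.6 ± 10.04 and 10.2 ± 0.534 CPM and LOXL4 4.09 ± 1.89 and 3.11 ± 0.41 CPM. LOX itself had 0.174 to 3.64 CPM in the high libraries, and its log2 fold of 1.03 became -0.54 when high IMF replicate 2 was left out.

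Fibril assembly partners, the small proteoglycans and matricellular proteins that bind collagen, had 14 positive folds of 15 tested, a median of 0.73 and 1 gene higher at an unadjusted p under 0.05 (of all genes, 51.2% were positive and 4.53% higher at that level). That gene was ASPN, encoding asporin, with 18.2, 9.08 and 1.45 CPM against 1.67, 2.81 and 3.21 CPM. SPARC, a collagen-binding glycoprotein, measured 453.5, 238.3 and 155.0 CPM against 146.7, 173.1 and 189.7 CPM. TNXB, the tenascin that bridges fibrils, measured 216.6 ± 129.8 and 104.2 ± 11.6 CPM, and THBS2, a thrombospondin, 8.14 ± 5.07 and 4.61 ± 1.08 CPM. Of 15 tested partners, 7 had the COL1A1 arrangement of libraries, which 4.61% of all genes had.

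Of 12 tested collagen receptors, 0 passed in edgeR, and 1 on each side had an unadjusted p under 0.05 (4.53% of all genes on the higher side, 2.74% on the lower). The lower one, the adhesion receptor ADGRG1, which binds type III collagen, measured 47.2, 42.5 and 45.1 CPM against 88.7, 65.0 and 60.1 CPM with no overlap (adjusted p = 0.523). The higher one was OSCAR (1.24 ± 0.36 and 0.608 ± 0.174 CPM), also with no overlap. Among the 12 receptors these were the only 1 above and 1 below without overlap, beside 6.86% and 6.1% of all genes. The fibroblast receptors ITGA11 (10.6 ± 10.4 and 3.07 ± 0.765 CPM) and MRC2 (37.96 ± 20.2 and 18.5 ± 6.71 CPM) overlapped between groups, as did DDR2, a receptor kinase for fibrillar collagen (55.2 ± 18.3 and 45.7 ± 11.7 CPM).

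Genes of collagen breakdown and its inhibitors had 12 members tested; 0 passed in edgeR, and 2 on each side had an unadjusted p under 0.05, beside 4.53% of all genes on the higher and 2.74% on the lower side. The membrane metalloproteinase MMP15 measured 106.6, 87.3 and 97.6 CPM against 58.1, 59.6 and 57.1 CPM, and MMP9, a gelatinase, 0.627 ± 0.345 and 0.087 ± 0.053 CPM. The inhibitors TIMP4 (35.0 ± 4.69 and 112.6 ± 14.0 CPM) and TIMP3 (309.1 ± 62.3 and 468.9 ± 29.1 CPM) lay on the other side, and none of these 4 overlapped between groups (6.86% of all genes lay above and 6.1% below without overlap). The adjusted p in edgeR was 0.504 for MMP15 and 0.263 for TIMP4, and both passed in the DESeq2 Wald test (0.0131 and 1.49e-10), as did 1.16% of its genes. MMP2, which digests unwound collagen, measured 150.9, 123.0 and 38.3 CPM against 31.2, 57.9 and 67.2 CPM and overlapped.

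Fibroblast markers, none of them a collagen, were also highest in high IMF replicates 1 and 2 and lowest in high IMF replicate 3. Their list level, the median over members of log2 CPM minus the mean over the 6 libraries, was 1.03, 0.80 and -1.50 in the high against -0.84, -0.01 and 0.25 in the low libraries. The collagen level was 0.30, 0.61 and -0.65 against -0.41, 0.01 and 0.12. Of 13 fibroblast markers 9 had the COL1A1 arrangement (4.61% of all genes), and their summed CPM was 620.7 to 2597 in high and 871.6 to 1596 in low IMF muscle. The progenitor receptor PDGFRA measured 29.4, 34.3 and 5.42 CPM against 8.06, 25.01 and 24.7 CPM. DCN, LUM and DPT are in both this list and that of assembly partners. The part of these cells in the collagen values was not tested.

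**Figure D5:**
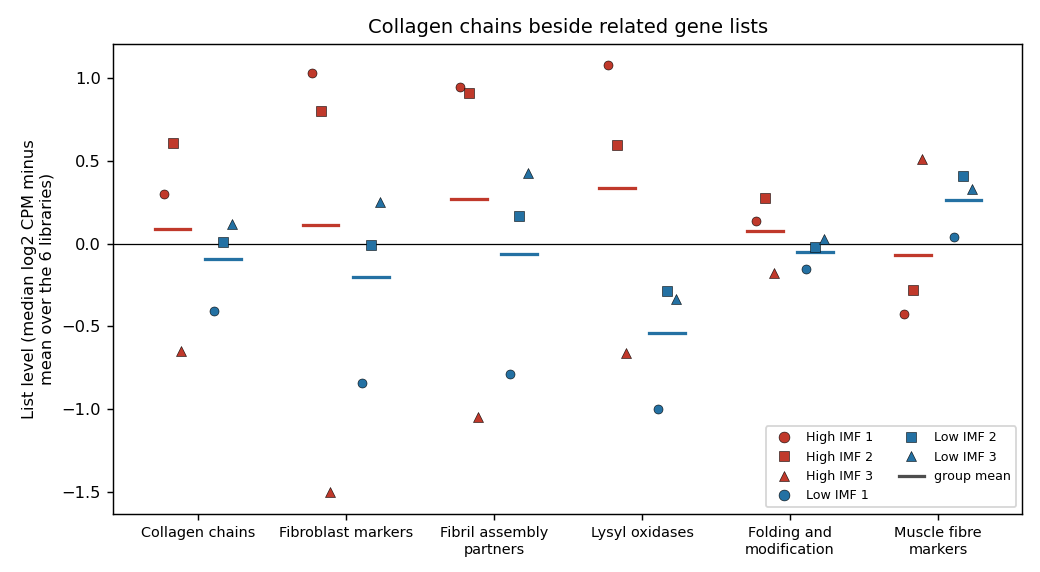
List level (median over members of log2 CPM minus each gene's mean over the 6 libraries) of the collagen chains and of 5 other gene lists in each library, with short lines for group means. High IMF replicate 3 is lowest for collagen chains (-0.65) and fibroblast markers (-1.50) and highest for muscle fibre markers (0.51).

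Other cell markers moved with high IMF replicate 3 in different ways. Muscle fibre markers had a level of -0.43, -0.28 and 0.51 against 0.04, 0.41 and 0.33, with summed CPM of 105700 to 174800 in high and 128900 to 178000 in low IMF muscle. Endothelial markers, from cells that also make type IV chains, were lowest in high IMF replicate 3 for 8 of 8 markers, as were 21.8% of all genes (summed CPM 451.5 to 874.0 in high, 842.0 to 985.5 in low). Smooth muscle and pericyte markers summed to 692.8 to 1012 CPM against 983.1 to 1496 CPM. Immune markers summed to 32.7 to 105.4 CPM in high and 23.7 to 35.8 in low. The 10 immune markers had 9 positive and 1 negative log2 fold, with a median of 1.47 (51.2% of all genes were positive). In edgeR 0 immune markers passed after adjustment. Before it 6 were higher with p under 0.05, beside 4.53% of all genes. Without overlap 4 immune markers lay above, as did 6.86% of all genes. Adipocyte markers summed to 1216 to 2144 and 1428 to 1869 CPM. GPD1 made up most of that sum in every library (686.8 to 1794 CPM in high, 938.9 to 1351 in low). Like the muscle fibre level, GPD1 was highest in high IMF replicate 3 and lowest in high IMF replicate 1. The adipocyte sum is therefore mostly a reading of GPD1 and cannot be taken as a level of adipocytes. The 10 adipocyte markers had 7 positive and 3 negative log2 folds, with a median of 1.55 (51.2% of all genes were positive). In edgeR 0 of them passed after adjustment. Before it 3 had p under 0.05, each with a positive fold, beside 4.53% of all genes. THRSP alone lay above without overlap, as did 6.86% of all genes. The adipocyte list level was highest in high IMF replicate 2 (2.77) and lowest in low IMF replicate 1 (-2.45). The part of these lists in the collagen values was not tested. Of 8 listed markers of tendon and cartilage 6 were too low to test: TNMD had 0 reads in 5 libraries and 4 in low IMF replicate 3, COMP had 0 to 4 and ACAN 0 to 6 reads per library. SOX9, a cartilage transcription factor, measured 19.9, 5.72 and 4.46 CPM against 2.15, 3.85 and 6.17 CPM, and its groups overlapped. THBS4, which muscle also expresses, measured 233.9 ± 23.8 and 186.1 ± 5.8 CPM and did not overlap between groups (6.86% of all genes lay above without overlap).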

How the data were processed

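Whole-muscle RNA was counted in 3 high and 3 low IMF libraries, grouped and numbered by sample title. The read counts per gene were deposited by the authors as whole numbers; the submitters' processing notes name HISAT2 and the mouse build mm9, while the table's gene descriptions are those of donkey and horse, so the genome behind the counts is uncertain and no coordinates are given. For the counter, its annotation and its strand setting the sources used here say nothing. FPKM values were deposited by the authors and used for levels between chains and for ratios. The deposited fold ratio, its log2 value and the p-values are the authors' own comparison and are quoted only by name.

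Counts were fitted over all 15933 genes kept by filterByExpr with edgeR 4.0.16 (TMM, quasi-likelihood F-test, Benjamini-Hochberg, threshold 0.05, R 4.3.3). The code was first run on simulated counts with the same spread for every gene and folds larger than those of most chains. That run therefore does not show how well the fit finds differences in these chains. As alternatives limma 3.58.1 and DESeq2 1.42.0 were used. The DESeq2 log2 folds differed from the deposited ones by at most 0.000498 over the chains. CPM values use TMM-adjusted library sizes; SEs come from the F statistic. Counts in the per-sample tables equalled those of the series table (0 cells differed).

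The chains, gene lists and alternatives were chosen with earlier results of these data known. Named are 14 chains of muscle connective tissue, chains at an unadjusted p under 0.05, chains with separate groups and at least 1 CPM, the most abundant chain of each class, and up to 4 genes of smallest p of each pathway list plus SERPINH1, P4HA1, LOX, BMP1, MMP2, DDR2 and SPARC; other chains are named for completeness. Symbols came from the table, and CTSL from a RefSeq gene table (assembly EquAss-T2T_v2), also used for gene order. How reads shared between similar genes were counted is not stated.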

Additional observations from a re-analysis of the deposited data

How the results depend on the processing

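No chain passed an adjusted p under 0.05 under any setting (0 to 0 chains without single libraries). Of all genes, 1.16% passed in the DESeq2 Wald test, 0.0185% in edgeR without high IMF replicate 1 and 0 in every other setting. The number of chains at an unadjusted p under 0.05 was 2 in edgeR, 7 with the DESeq2 Wald test, 1 with limma-voom, 1 with low IMF replicates 2 and 3 summed, and 1 to 13 without single libraries: 13 (12 higher) without high IMF replicate 3, and 6 (all lower) when high IMF replicate 2 was left out. Leaving out low IMF replicates 1, 2 and 3 in turn gave 4, 1 and 3, and leaving out high IMF replicate 1 gave 1. The shares of all genes at that level in these fits, given with each count above, were 4.26% to 12.5%. The number of chains without overlap between groups was 2, 1 with CPM on total reads, and 2 to 20 without single libraries. Of all genes tested, 13.0% did not overlap with every library kept. Without single libraries 8.77% to 16.2% of all genes lay above and 8.03% to 15.1% below. The 20 chains were found without high IMF replicate 3, where both shares were largest. The chain median lay between -0.04 and 0.44 and the log2 ratio of summed levels between 0.08 and 0.79 without single libraries. Without single libraries the log2 differences between groups of the chain ratios were -0.14 to 0.42 for COL1A1/COL1A2, -0.40 to 0.06 for COL3A1/COL1A1, -0.20 to 0.05 for COL4A1/COL4A2, -0.20 to 0.00 for COL6A1/COL6A2, 0.51 to 1.27 for COL6A3/COL6A1 and -0.01 to 0.20 for COL5A1/COL5A2.

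Many of the 46 named genes were picked for a small p or for separate groups in these same libraries, which favours a kept sign. No share of kept signs was taken over all genes. Of the 46 named genes 38 kept the sign of their log2 fold in every setting. The other 8 turned, by single libraries, within -0.28 to 0.68 (COL4A1), -0.155 to 0.64 (COL4A2), -0.18 to 0.43 (COL6A1), -0.0589 to 0.43 (COL6A2), -0.40 to 0.20 (COL18A1), -0.0882 to 0.18 (P4HA1), -0.0298 to 0.47 (DDR2) and -0.54 to 1.54 (LOX). COL6A1 was -0.0578 with limma-voom, COL18A1 0.10 with library size only and 0.0183 with low IMF replicates 2 and 3 summed, and P4HA1 -0.0351 with those summed; the cause was not tested. Library size only gave a median log2 fold of 0.15 over all genes, against 0.01 with TMM, and of 0.38 over the chains. With the replicate number as a block 3 chains had an unadjusted p under 0.05, all lower, COL6A1 was -0.0116, and 0 passed. Deviations of same-numbered libraries correlated at 0.22, 0.18 and 0.03 over genes. High IMF replicate 2 correlated at 0.23 with low IMF replicate 3. That low library was close to low IMF replicate 2, so these values cannot decide whether the numbers are pairs. No pairing was used in the main fit. With 3 libraries a group, the spread between the high libraries limits the precision of every fold given.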

Other observations

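The table held 15 further rows whose protein description names a collagen chain but whose symbol is not of the COL form. Together these rows had 1.78% as many reads as the 42 chains, and 6837 of their 9563 reads were in the ADPRHL1 row given last. One, a row whose identifier is that of COL6A6, a further type VI chain, had 185, 43 and 24 reads across the high libraries against 40, 54 and 99 across the low ones. The highest was high IMF replicate 1 and the groups overlapped. Of 3 rows described as collagen XXV, a transmembrane collagen of motor nerve development, the largest had 124 reads in low IMF replicate 1 and 10 to 24 in the other 5 libraries, and COL24A1 peaked in the same library. The row with the most reads (6837) was named ADPRHL1 but described as a type I collagen chain of the horse. It had 338, 2132 and 440 reads against 584, 1554 and 1789, an order unlike that of COL1A1, and it was not counted among the 42 chains.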
